A study of Mus musculus with 4 samples.

Results

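The 37 interferon-stimulated genes examined here were chosen by name, as well-known genes that cells switch on in response to interferons, and all 37 were among the 21090 genes of the deposited expression table. All 37 also passed the filter on low values, a mean of at least 1 RPKM (read counts scaled by gene length and by the size of the library) over the libraries, which 10871 genes passed. RNA was sequenced from 4 lines of mouse mammary tumor cells, 1 library per line. Per the study's results, the line used for the knockouts grew out of a primary tumor, with lung metastasis. The mouse carried Pik3ca H1047R, Trp53 R270H and MMTV-Cre, so lines derived from that line share these mutations. Cre under the MMTV promoter switched them on in the mammary gland. The control group held the parental line (titled 307 cell) and a vector control line, and the knockout group held a line with S100a4 targeted in exon 3 (exon 3 knockout) and a line with S100a4 targeted in exon 2 (exon 2 knockout). Lentivirus delivered Cas9 and the guide RNA to the knockout lines under puromycin selection. The name of the vector control line says that it carried the vector, and the parental line carried none. The title of the exon 2 knockout line opens with another cell number than the other 3 titles, so whether it had the same parent could not be told. No source says that any line was cultured more than once, so a line, its vector and its library cannot be told apart. The comparison set by the study is knockouts against both controls, and a further one is the 3 vector-carrying lines against the parental line.

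S100a4, the targeted gene, stood at 3576 RPKM in parental cells, 4741 in vector control cells, 1136 with exon 3 targeted and 1105 with exon 2 targeted. Its RNA was thus lower in both libraries labelled as knockouts than in both controls. Totals of 22472024 to 31235456 reads lay behind the RPKM of the 4 libraries. All 6 mesenchymal markers had a mean of at least 1 RPKM, whereas of 6 epithelial markers only Krt8 and Krt18 did, with Epcam and Cdh1 under 1 in every line. The leukocyte markers Ptprc, Cd3e and Siglech were at or near 0 in the 4 libraries. Of 8 leukocyte markers listed, 7 had values, and only Cd68 had a mean of at least 1 RPKM (3.36 to 13.2, lowest in the vector control).

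Interferons are secreted proteins that cells release on sensing viral or misplaced nucleic acid. Type I interferons bind the Ifnar1 and Ifnar2 receptor pair, whose kinases Jak1 and Tyk2 phosphorylate Stat2. Stat2 and Irf9 belong to a complex that binds the interferon-stimulated response element in the promoters of its target genes. The target genes encode sensors of viral RNA, proteins that block translation or degrade RNA, membrane and nuclear restriction factors, and regulators of the response itself. In tumor cells the same program is known to run without infection, for example in response to the cell's own DNA or RNA in the cytosol.

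The core of that response element, GAAA, any 2 bases, then GAAA, was searched on both strands in RefSeq promoter windows of build GRCm38.p6, which reach from 250 bases before to 50 bases after the start of a gene. A window was at hand for 29 members, and 14 of these held the core (48.3%). Of 8320 tested genes with a window, 310 held it (3.73%), and 1079 of all 27025 genes with a promoter entry did (3.99%). A match describes the letters and does not show binding. The stretches that follow, each of 30 bases on the strand of the gene, come from members of different roles whose levels are described below, with the core and its overlapping copies in capitals; cores on the opposite strand read TTTC, 2 bases, TTTC.
Stat2 at chr10:128270266-128270295, plus strand: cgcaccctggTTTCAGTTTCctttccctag
Ddx58 at chr4:40239804-40239833, minus strand: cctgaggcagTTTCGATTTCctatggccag
Isg15 at chr4:156200871-156200900, minus strand: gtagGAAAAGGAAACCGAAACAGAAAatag
Ifit1 at chr19:34640784-34640813, plus strand: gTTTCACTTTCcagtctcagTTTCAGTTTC
Oas1a at chr5:120907523-120907552, minus strand: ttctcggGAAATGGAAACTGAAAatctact
Oas3 at chr5:120777715-120777744, minus strand: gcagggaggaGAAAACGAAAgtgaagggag
Gbp3 at chr3:142559992-142560021, plus strand: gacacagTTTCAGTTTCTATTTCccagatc
Rsad2 at chr12:26456553-26456582, minus strand: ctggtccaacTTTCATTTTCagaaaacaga
Eif2ak2 at chr17:78882535-78882564, minus strand: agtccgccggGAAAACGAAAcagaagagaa
Isg15 held 3 overlapping cores in its stretch, and Ifit1, Oas1a and Gbp3 held 2 each. Oas3 and Rsad2 carried the core too, although their levels followed other patterns than most of the list.

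The interferon-stimulated genes stood highest in the vector control line. For 34 of the 37 members the vector control was the highest of the 4 lines, against 36.6% of all genes tested. At 17 members it was at least 2-fold above every other line on the scale of log2(RPKM + 1), used for all differences here, against 1.57% of genes. The exceptions to the first count were Irf2 and Isg20, highest in the parental line, and Oas3, highest in the exon 2 knockout. The median level of the list on the log2 scale was 5.30 in parental cells, 6.43 in vector control cells, 4.96 with exon 3 targeted and 5.29 with exon 2 targeted. Summed over the 37 genes, the levels were 2938, 6781, 3026 and 3653 RPKM in the same order. By the median and the sum of the list, the vector control was thus above the other 3 lines.

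**Figure D1:**
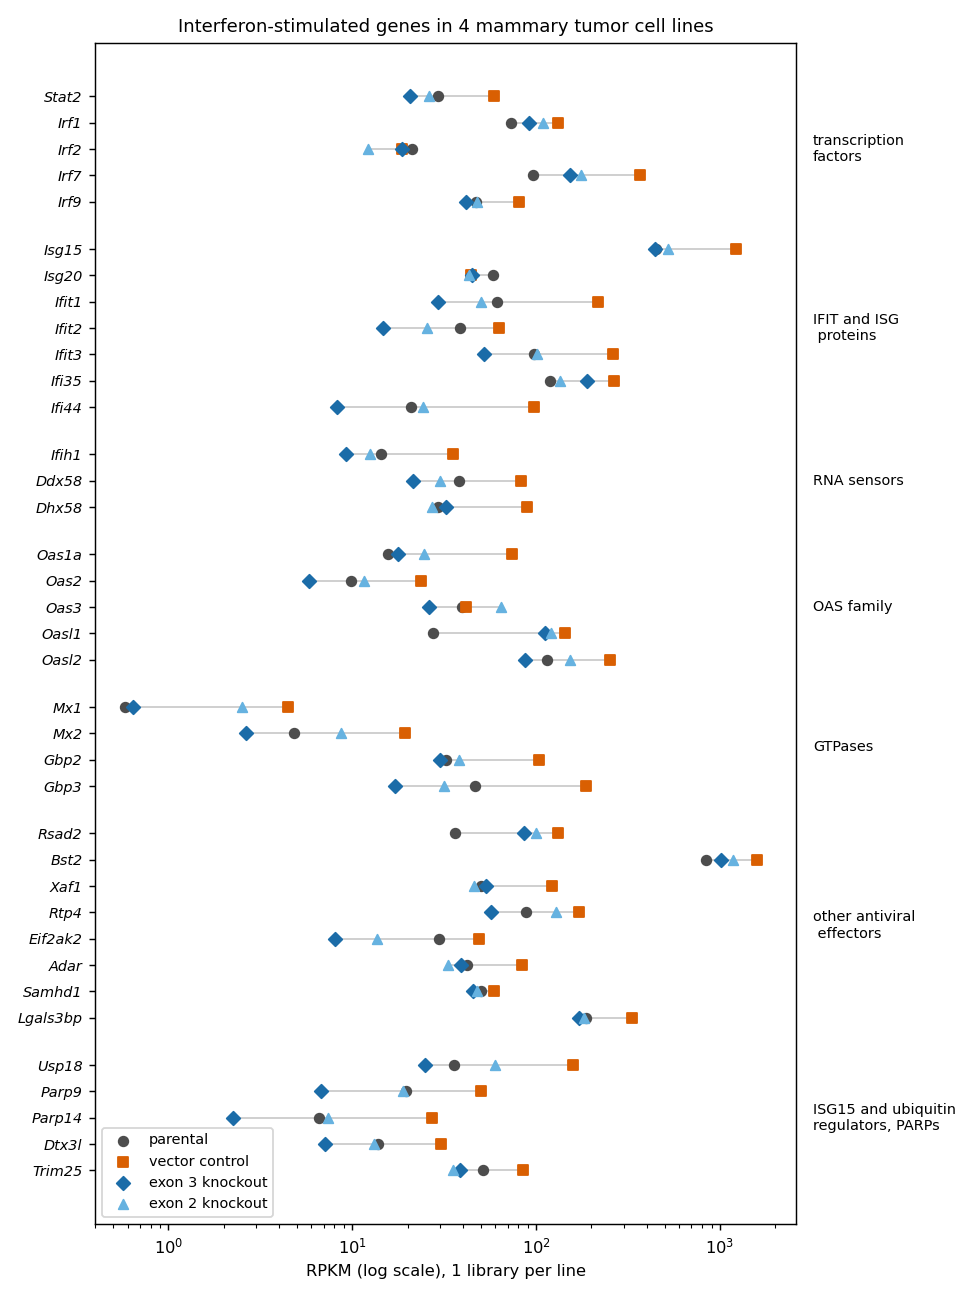
RPKM of the 37 interferon-stimulated genes, grouped by role, on a log axis; each point is 1 library and the grey line joins the lowest to the highest. The vector control (orange squares) lies farthest right for 34 genes, all but Irf2, Isg20 and Oas3.

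The transcription factors carry the signal from the receptor to the target genes. Irf7, the factor that amplifies type I interferon production, was at 95.7 RPKM in parental cells, 367 in vector control cells, 152 with exon 3 targeted and 175 with exon 2 targeted. Its vector control level was 3.84 times that of the parental line, and both knockouts lay between these lines. Stat2, the partner of Irf9 in the factor complex, was at 29.1 RPKM in parental cells, 58.8 in vector control cells, 20.6 with exon 3 targeted and 26.2 with exon 2 targeted. Irf1, Irf2 and Irf9 differed by less than 2-fold between any of the 4 lines, and their levels ranged from 12.2 RPKM for Irf2 to 131 for Irf1. On the log2(RPKM + 1) scale, Irf7 alone of the 5 factors was 2-fold higher in the vector control than in the parental line. Stat2, 2.02 times as high by RPKM, fell just short of 2-fold on that scale, at 0.990.

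The 3 RNA sensors that recognize viral RNA in the cytosol, Ifih1 (MDA5), Ddx58 (RIG-I) and Dhx58 (LGP2), shared 1 pattern. Ifih1 was at 14.3 RPKM in parental cells, 35.5 in vector control cells, 9.30 with exon 3 targeted and 12.5 with exon 2 targeted. Ddx58 stood at 37.9, 83.1, 21.3 and 30.1 RPKM in that order of lines. For Dhx58 the levels were 29.2, 88.8, 32.5 and 27.1 RPKM. In each case the vector control was more than 2-fold above the other 3 lines, and the parental line and the knockouts were within 2-fold of each other.

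Among the IFIT and ISG proteins, 5 of 7 members were 2-fold higher in the vector control than in the parental line. Isg15, the ubiquitin-like protein that is joined to other proteins in the interferon response, was the second most abundant member per length, at 446 RPKM in parental cells, 1223 in vector control cells, 445 with exon 3 targeted and 521 with exon 2 targeted. Its level in the vector control was 2.74 times that of the parental line, from which the exon 3 knockout differed by a ratio of 0.997. Ifit1, which binds viral RNA that lacks the host cap marks, was at 61.3 RPKM in parental cells, 217 in vector control cells, 29.1 with exon 3 targeted and 50.2 with exon 2 targeted. Ifit2 and Ifit3 encode relatives of Ifit1 and neighbour it on chromosome 19, between positions 34550694 and 34650009 of build GRCm38. Ifit2 stood at 38.5, 62.6, 14.8 and 25.4 RPKM in the same order of lines. Ifit3 stood at 97.4, 261, 52.4 and 102 RPKM. For all 3 the vector control was highest and the exon 3 knockout lowest, but Ifit2 was only 1.63 times as high in the vector control as in the parental line. Ifi44, an interferon-induced protein of uncertain role, varied the most of this group, with 21.0 RPKM in parental cells, 97.0 in vector control cells, 8.22 with exon 3 targeted and 24.4 with exon 2 targeted. Ifi35 stood at 119, 266, 189 and 136 RPKM, and here the exon 3 knockout was above the exon 2 knockout. Isg20, an exonuclease that degrades RNA, differed by less than 2-fold between all lines, from 43.4 to 58.0 RPKM.

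The OAS family makes or resembles enzymes that make the short oligoadenylates which switch on RNA decay, and its 5 members did not share 1 pattern. Oas1a was at 15.7 RPKM in parental cells, 73.8 in vector control cells, 17.8 with exon 3 targeted and 24.6 with exon 2 targeted, so the vector control stood apart. Oas2 stood at 9.91, 23.8, 5.82 and 11.6 RPKM in that order. Oasl2 had 115, 251, 87.0 and 152 RPKM. Both of these were highest in the vector control and lowest in the exon 3 knockout. Oasl1, a relative that restrains translation of Irf7, was at 27.5 RPKM in parental cells, 144 in vector control cells, 112 with exon 3 targeted and 121 with exon 2 targeted. All 3 vector-carrying lines were thus more than 2-fold above the parental line for Oasl1. Oas3 was at 39.7 RPKM in parental cells, 41.4 in vector control cells, 26.3 with exon 3 targeted and 64.7 with exon 2 targeted. The controls lay close together for Oas3, with the exon 3 knockout below both and the exon 2 knockout above both. These genes form 2 groups on chromosome 5 of build GRCm38, with Oasl2 and Oasl1 from 114896936 to 114937915 and Oas2, Oas3 and Oas1a from 120730333 to 120907521.

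The 4 GTPases, which assemble on viral particles or on the membranes around pathogens, were all at least 2-fold higher in the vector control than in the parental line. Gbp3 was at 46.7 RPKM in parental cells, 187 in vector control cells, 17.0 with exon 3 targeted and 31.5 with exon 2 targeted. Gbp2, its neighbour on chromosome 3, stood at 32.5, 103, 30.2 and 38.1 RPKM. Both guanylate-binding protein genes stood apart in the vector control, and Gbp3 was below the parental line in both knockouts where Gbp2 was close to it. Mx2, whose gene is annotated as a polymorphic pseudogene in the reference mouse strain, stood at 4.799, 19.4, 2.64 and 8.66 RPKM. Mx1 was the lowest member, with 0.579 RPKM in parental cells, 4.49 in vector control cells, 0.642 with exon 3 targeted and 2.52 with exon 2 targeted. These Mx1 values rested on 30, 189, 25 and 94 reads. Their 95% Wilson intervals, which cover counting error only, were 0.406 to 0.827, 3.89 to 5.18, 0.435 to 0.948 and 2.06 to 3.09 RPKM, so beyond counting error the vector control was above the other 3 lines and the exon 2 knockout above the remaining lines. Every other member had at least 122 reads in each library.

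Of the other antiviral effectors, 8 genes with unlike roles, the vector control was highest for all 8 but 2-fold above the parental line for only Rsad2 and Xaf1. Rsad2 (viperin), which makes a chain-terminating nucleotide, was at 36.1 RPKM in parental cells, 132 in vector control cells, 85.9 with exon 3 targeted and 99.3 with exon 2 targeted. As for Oasl1, the 3 vector-carrying lines were all more than 2-fold above the parental line. Eif2ak2 (PKR), the kinase that stops translation on binding double-stranded RNA, was at 29.8 RPKM in parental cells, 49.0 in vector control cells, 8.04 with exon 3 targeted and 13.6 with exon 2 targeted. Both knockouts lay below both controls, and the mean of the knockouts was 36.3% of the parental level. Bst2 (tetherin), which holds budding virus at the cell surface, was the most abundant member per length, at 845, 1599.5, 1017 and 1171 RPKM in the parental line, vector control, exon 3 and exon 2 knockout. Lgals3bp, a secreted glycoprotein, followed Isg15, at 187, 332, 171 and 182 RPKM in that order. Neither was as much as 2-fold higher in the vector control than in parental cells. Xaf1, an inhibitor of the apoptosis blocker XIAP, stood at 50.2, 122, 53.7 and 46.0 RPKM. Adar, which edits adenosine to inosine in double-stranded RNA, stood at 42.0, 83.5, 39.2 and 33.3 RPKM. The vector control was the line apart for both, and the knockouts were near the parental line. Rtp4, a chaperone of membrane receptors, stood at 88.3, 171, 56.5 and 129 RPKM, with the exon 2 knockout 2.28 times the exon 3 knockout. Samhd1, which depletes deoxynucleotides, ranged from 45.4 to 59.4 RPKM and was less than 2-fold apart between any of the lines.

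The regulators of ISG15 and ubiquitin and the interferon-induced PARPs were lowest in the exon 3 knockout at 4 of 5 members, Trim25 being lowest in the exon 2 knockout. Usp18, which removes ISG15 and damps receptor signalling, was at 35.8 RPKM in parental cells, 159 in vector control cells, 24.9 with exon 3 targeted and 59.9 with exon 2 targeted. Parp14 had the largest ratio of the vector control to the mean of the knockouts in this group of 5, 5.68, with 6.62 RPKM in parental cells, 27.3 in vector control cells, 2.26 with exon 3 targeted and 7.34 with exon 2 targeted. Parp9 stood at 19.7, 49.97, 6.80 and 19.0 RPKM in the same order. Its binding partner Dtx3l, a ubiquitin ligase, had 13.9, 30.3, 7.15 and 13.1 RPKM. The exon 2 knockout was near the parental line for Parp14, Parp9 and Dtx3l, and the exon 3 knockout below it. Trim25, the ubiquitin ligase that acts on RIG-I, stood at 51.5, 85.2, 38.7 and 35.5 RPKM. Parp14, Dtx3l and Parp9 lie side by side on chromosome 16 of build GRCm38, at 35832874-35871544, 35926511-35939151 and 35938470-35972605, and the ends of Dtx3l and Parp9 overlap on opposite strands. The sources do not say whether counting used strand, so reads in that overlap cannot be assigned.

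Set against the parental line, the vector control had 23 of 37 members at least 2-fold higher, whereas 3.34% of all genes tested were, and no member was 2-fold lower. The median difference over the members was 1.18 on the log2 scale and 0.16 over all genes, with 35 members higher and 2 lower. Of all 10871 genes tested, 6888 were higher and 3983 lower. The members' differences ranged from -0.38 for Isg20 to 2.34 for Oasl1. With 1 library on each side, these differences have no replicate check and no p-value. The vector control also stood apart in other genes. The summed level of the 6 epithelial markers, nearly all from Krt8 and Krt18, was 34.3 RPKM there and 74.8 to 129.8 RPKM in the other 3 lines. Of the mesenchymal markers, Col1a1 and Fn1 were lowest there, S100a4 was highest and the rest lay between. Col1a1 stood at 670 RPKM in parental cells, 6.93 in vector control cells, 54.3 with exon 3 targeted and 24.2 with exon 2 targeted. For that gene the parental line stood apart too. The part of such genes in the result was not tested.

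**Figure D2:**
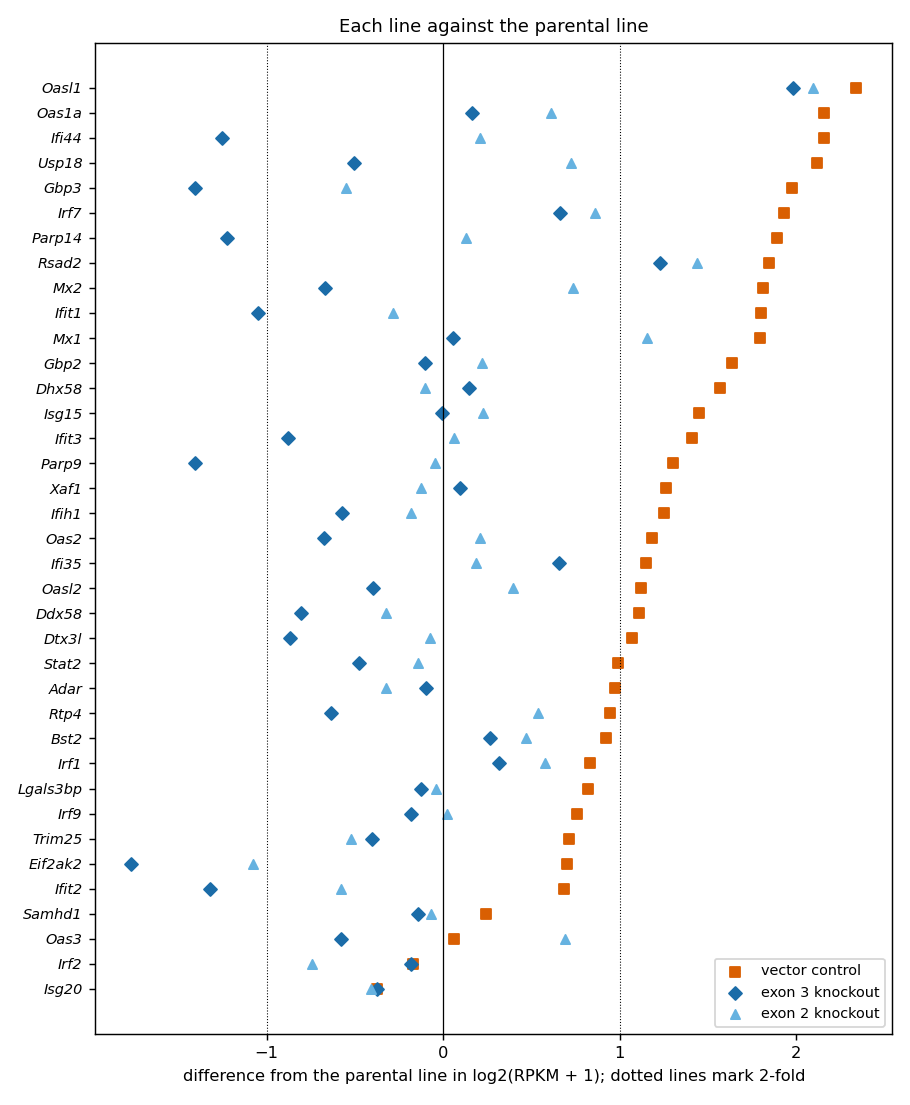
Difference of each vector-carrying line from the parental line in log2(RPKM + 1) for the 37 genes, ordered by the vector control; dotted lines mark 2-fold. The vector control lies beyond 2-fold for 23 genes, while Oasl1 and Rsad2 lie beyond it in all 3 lines and Eif2ak2 lies 2-fold below the parental line in both knockouts.

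Each knockout was below the vector control across the list. In the exon 3 knockout 26 members were at least 2-fold lower than in the vector control, against 15.5% of genes, and in the exon 2 knockout 22 were, against 9.6%. No member was 2-fold higher in either. The median difference from the vector control on the log2 scale was -1.52 with exon 3 targeted and -1.15 with exon 2 targeted, beside -0.14 and -0.13 over all genes. By limma, with the knockouts as a pair against the vector control, 24 of 37 members fell at an adjusted p under 0.05, where 5.06% of all genes did, and none rose. The calls covered 2 of 5 transcription factors (Stat2, Irf7), 3 of 3 sensors, 5 of 7 IFIT and ISG proteins (Isg15, Ifit1, Ifit2, Ifit3, Ifi44), 3 of 5 OAS members (Oas1a, Oas2, Oasl2), 3 of 4 GTPases (Mx2, Gbp2, Gbp3), 3 of 8 other effectors (Eif2ak2, Adar, Xaf1) and 5 of 5 regulators and PARPs. Gbp3 fell the most, by 2.96 on the log2 scale (SE 0.374, limma adjusted p = 1.52e-12), followed by Ifi44, which fell by 2.68 (SE 0.399, limma adjusted p = 6.46e-09). Over all settings tried for the knockouts and the controls, the limma adjusted p of Gbp3 ran from 1.52e-12 to 0.610 and that of Ifi44 from 6.46e-09 to 0.749. In this fit only the 2 knockout lines gave spread, and the lone control was assumed to vary like them. In place of each gene's own spread, limma used a spread shared by genes of like level. Its p-values and calls thus do not measure how far the lines differed at each gene. Ifi44, for example, differed by 1.46 on the log2 scale between the knockouts, beside an SE of 0.399. Reading this fit as a comparison was decided after the vector control was seen to stand apart. The count was 9 after quantile normalization, 5 after correction for GC content and length, and 0 without the filter on low genes, where 16 members had an unadjusted p under 0.05.

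Against the parental line the knockouts differed less across the list. The median difference of the members was -0.40 with exon 3 targeted and 0.061 with exon 2 targeted, beside -0.049 and -0.015 over all genes. In the exon 3 knockout 7 members were at least 2-fold lower than in the parental line (12.2% of all genes), namely Ifit1, Ifit2, Ifi44, Parp9, Parp14, Eif2ak2 and Gbp3, and 2 were higher (4.53% of genes), Oasl1 and Rsad2. The exon 2 knockout had 1 member lower (7.52% of genes), Eif2ak2, and 3 higher (2.87% of genes), Oasl1, Mx1 and Rsad2. With the knockouts as a pair against the parental line, limma called 3 of 37 members. As against the vector control, only the 2 knockout lines gave spread, and the lone control was assumed to vary like them. Here too limma used a spread shared by genes of like level, so its p-values do not measure how far the lines differed at each gene. The comparison was added after the data were seen. Oasl1 rose by 2.04 on the log2 scale (SE 0.352, limma adjusted p = 3.55e-06) and Rsad2 by 1.33 (SE 0.354, limma adjusted p = 0.00956), where 1.07% of genes rose. Eif2ak2 fell by 1.42 (SE 0.440, limma adjusted p = 0.0362), where 3.08% of genes fell. Over the settings tried with either or both controls, the limma adjusted p ran from 3.55e-06 to 0.749 for Oasl1, from 0.00956 to 0.847 for Rsad2 and from 5.81e-05 to 0.437 for Eif2ak2. Over those settings the difference of Oasl1 turned, from -0.30 without the parental line to 2.04 without the vector control, and that of Rsad2 from -0.51 to 1.33. The count was 1 after quantile normalization and 1 after correction for GC content and length, and none were called without the filter on low genes.

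**Figure D3:**
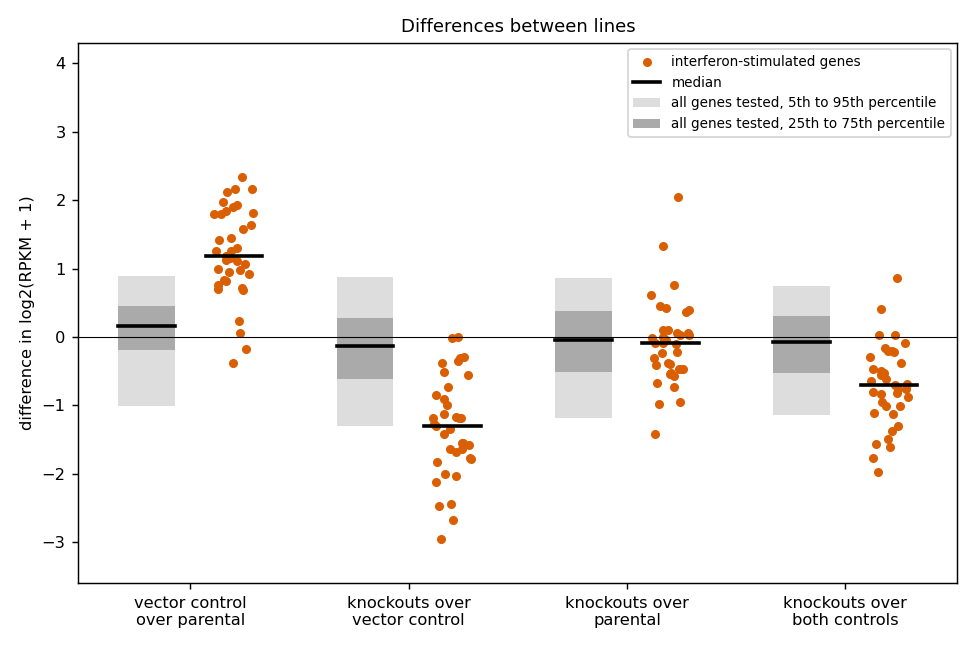
Differences in log2(RPKM + 1) of all 10871 genes tested (grey bars at the left of each position, their percentile ranges as in the legend) and of the 37 interferon-stimulated genes (orange points); black lines are medians. The members' median is 1.18 for the vector control over the parental line, -1.30 for the knockouts over the vector control, -0.082 over the parental line and -0.70 over both controls.

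Taking both controls as the study's comparison sets them, none of the 37 members passed the test by limma, and 0.0184% of all genes did. At an unadjusted p under 0.05, 12 members were lower and 0 higher, where 13.8% of all genes were lower: Ifit1, Ifit2, Ifit3, Ifi44, Ifih1, Ddx58, Parp9, Parp14, Dtx3l, Trim25, Eif2ak2 and Gbp3. With voom on the recovered reads 0 members were called and 12 had an unadjusted p under 0.05. The median difference of the members was -0.70 on the log2 scale and that of all genes -0.078. Without the vector control the members' median was -0.082, and without the parental line it was -1.30. Both knockouts lay below both controls for 14 members, where 31.2% of all genes did so. Eif2ak2 was the only member at least 2-fold lower in all 4 pairs of a knockout and a control (1.73% of genes), with a difference of -1.77 (SE 0.366, limma adjusted p = 0.0957). Gbp3 had the largest difference, -1.97 (SE 0.539, limma adjusted p = 0.130). Without the parental line limma called 24 members, and without the vector control 3. An exact permutation test of 2 lines against 2 cannot give a p below 0.33.

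The 3 vector-carrying lines were then set against the parental line, which asks what the lines that went through lentivirus share. By limma no member was called, nor was any gene (0% of 10871). At an unadjusted p under 0.05 there were 3 members, all higher, where 1.5% of all genes were higher, and with voom 0 were called and 2 had such a p. They were Oasl1, with a difference of 2.14 (SE 0.352, limma adjusted p = 0.326), Rsad2, with 1.504 (SE 0.379, limma adjusted p = 0.747), and Irf7, with 1.15 (SE 0.499, limma adjusted p = 0.953). Oasl1 and Rsad2 were at least 2-fold above the parental line in each of the 3 lines, as were 0.212% of genes. The median over the 37 members was 0.24, and without the vector control it was -0.082, and over all genes it was 0.018 with all 4 lines. An exact permutation test of 3 lines against 1 cannot give a p below 0.25.

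The knockout lines differed from each other as well. In the exon 2 knockout 8 members were at least 2-fold higher than in the exon 3 knockout (2.57% of genes), namely Ifi44, Oas3, Mx1, Mx2, Usp18, Parp9, Parp14 and Rtp4, and none were lower. The largest RPKM ratios were those of Mx1, 3.93, Mx2, 3.28, and Parp14, 3.25. The median difference over the members was 0.39 on the log2 scale and 0.054 over all genes, and 30 members were higher and 7 lower. Of all 10871 genes tested, 5911 were higher and 4957 lower. Since there is 1 library for each exon, the exon, the line and the library cannot be told apart.

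The genes upstream and beside the members were read from lists of the pathway. Interferon genes themselves were close to 0. Ifnb1, the beta interferon gene, had 5 reads in parental cells, 12 in vector control cells and 0 in each knockout, where 0 reads allow up to 0.233 RPKM (exon 3) and 0.243 RPKM (exon 2). Its level in the vector control was 0.861 RPKM. Ifna1, an alpha interferon gene, had 12 reads in parental cells, 5 in vector control cells, 0 with exon 3 targeted and 1 with exon 2 targeted. The ligand with most reads in the vector control was thus not the one with most in parental cells, and none of the 9 ligand genes reached a mean of 1 RPKM. Of the receptors, Ifnar1 stood at 14.4 RPKM in parental cells, 18.4 in vector control cells, 14.0 with exon 3 targeted and 14.6 with exon 2 targeted. Ifnar2, the other chain, stood at 27.3, 18.7, 26.3 and 41.8 RPKM in that order. Ifnar1 was thus highest and Ifnar2 lowest in the line with the highest target genes. Ifngr1, a chain of the interferon gamma receptor, was at 87.9 RPKM in parental cells, 34.8 in vector control cells, 43.3 with exon 3 targeted and 61.8 with exon 2 targeted, while Ifngr2 ranged from 30.7 to 38.3 and Il10rb from 10.2 to 13.8 RPKM. The kinase Jak1 stood at 31.7, 36.9, 19.6 and 26.1 RPKM and Jak2 at 5.38, 6.68, 3.22 and 4.28 RPKM, both below the controls in the knockouts. Tyk2 ranged from 9.32 to 14.2 RPKM, with the vector control lowest. Of 5 receptors, 3 kinases and 6 inhibitors tested, none was 2-fold higher in the vector control than in the parental line. That rule held for 3.34% of all genes, so with so few genes a count of none is near the share. The median difference of the knockouts from the vector control was -0.031, -0.68 and -0.21 for receptors, kinases and inhibitors, beside -0.13 over all genes.

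The list for sensing upstream of interferon held genes around that step, not all of them sensors of nucleic acid or relays of its signal. Of its 14 tested genes, 5 were at least 2-fold higher in the vector control than in the parental line, where 3.34% of all genes were. They were Tlr3, Tbk1, Irf5, Zbp1 and Trex1. Of these 5, Tlr3, Tbk1 and Zbp1 fell in the knockouts against the vector control by limma, where 5.06% of genes did. These were singled out after their values were seen. Zbp1, a sensor of left-handed nucleic acid, was at 4.83 RPKM in parental cells, 33.2 in vector control cells, 4.51 with exon 3 targeted and 11.1 with exon 2 targeted. Tlr3, the receptor for double-stranded RNA in endosomes, stood at 1.92, 11.5, 0.987 and 1.16 RPKM.

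A further list of 41 tested interferon-induced genes outside the 37 members, drawn up with earlier results of these data known, was also highest in the vector control. The vector control was the highest line for 36 of the 41, where 36.6% of all genes were highest there. It was at least 2-fold above the parental line for 28, where 3.34% of genes were, with a median difference of 1.40 on the log2 scale. In the knockouts against the vector control 27 of the 41 fell by limma, where 5.06% of genes did. Gbp7 was the only gene of this list at least 2-fold lower in all 4 pairs of a knockout and a control, where 1.73% of all genes were. It stood at 12.9 RPKM in parental cells, 49.4 in vector control cells, 3.31 with exon 3 targeted and 5.06 with exon 2 targeted. A count of 1 in 41 genes is close to that share, as is Eif2ak2 alone among the 37 members.

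**Figure D4:**
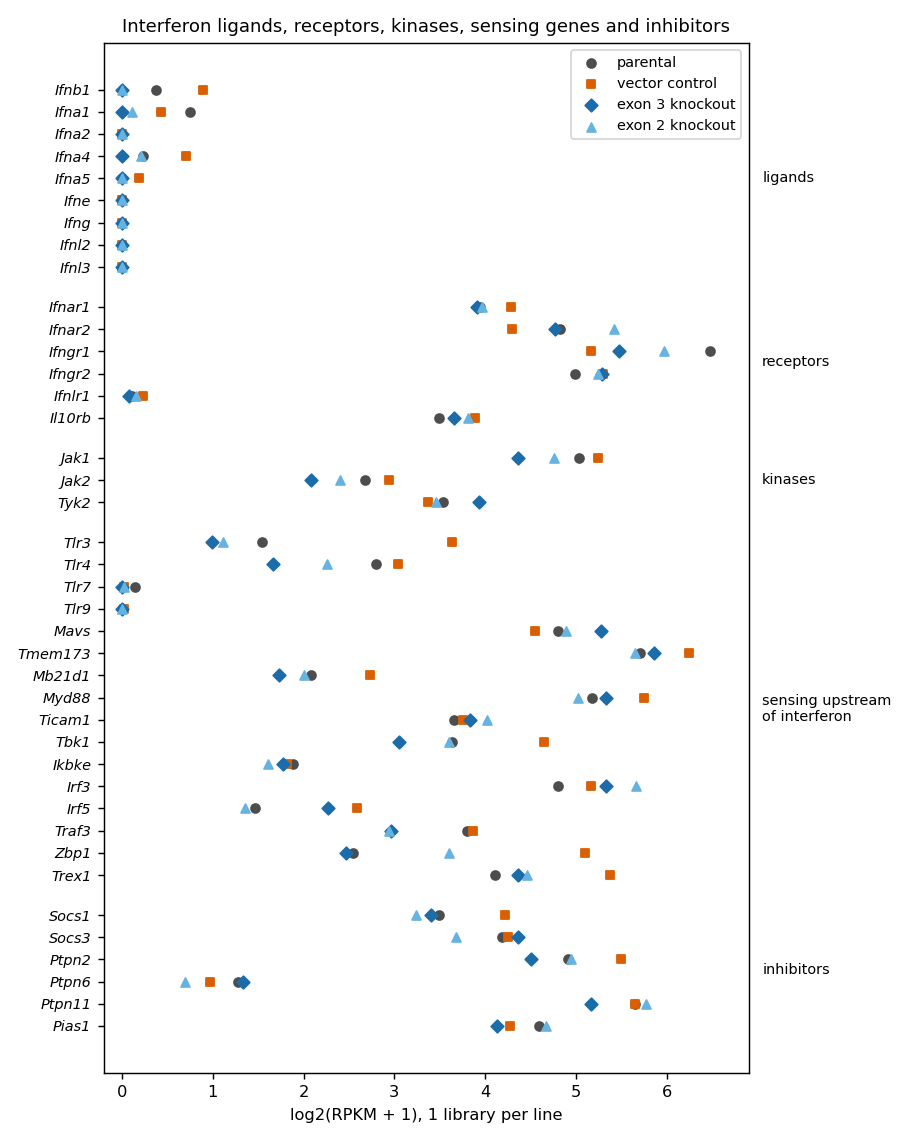
Levels in log2(RPKM + 1) of interferon ligands, receptors, kinases, sensing genes and inhibitors in the 4 lines, 1 point per library. The ligands lie near 0, Ifnb1 reaching 0.861 RPKM in the vector control, and among the sensing genes Tlr3 and Zbp1 stand apart in the vector control.

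Several members have close relatives in the genome, among them the Ifit, Oas, Gbp and Mx genes. How reads that match more than 1 gene were counted is not given in the sources used here, so the split between such relatives is uncertain. The members' coding sequences had a median GC content of 50.9%, and those of the tested genes 53.0%.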

How the data were processed

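RNA from 4 mouse mammary tumor cell lines was sequenced, 1 library per line. The labels name a TruSeq Stranded Total RNA kit, while the study's methods name the TruSeq RNA kit. The submitters' processing notes name CASAVA 1.8, GSNAP and build GRCm38. The authors deposited RPKM per gene. The gene model and counting rule are not given in the sources used here. Whole reads could be recovered from the deposited RPKM for 99.96% of 14196 genes above 0 in 2 or more libraries (within 0.001 reads), with 22472024 to 31235456 reads behind the RPKM, and 56% of the lengths implied equalled an annotated coding length.

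Genes with a mean RPKM of at least 1 (10871) were tested on log2(RPKM + 1) in limma 3.58.1 (R 4.3.3) with an intensity trend and Benjamini-Hochberg adjustment over all genes at 0.05. Fold changes on this scale understate those of low genes, and RPKM ratios are given without the pseudocount. Groups followed the sample titles. p-values rest on the spread between lines, 1 library each, which limma draws toward that of genes of like level. In the fits of the knockouts against 1 control line, that shared spread fully replaced the gene's own. The fits over all libraries were tested on simulated data drawn from the fitted spread, and those against 1 control line were not. Alternatives were a pseudocount of 0.1, other filters, scaling by median ratios or quantiles, correction for GC content and length, limma without trend or with a robust prior, voom on the recovered reads, a 3-fold limit and leaving out each line. Counts for each pair of lines, and for the knockouts against 1 control line, were added after the data were seen.

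The members and lists were chosen with earlier results of these data known. Values in all lines are given for members at least 2-fold apart between the highest and lowest line or with an unadjusted p under 0.05, and for the 3 with the highest mean RPKM, and for the others a range. Of pathway genes, those named are the receptors and Janus kinases with a mean of at least 1 RPKM and genes 2-fold apart in every pair, and any others were chosen after their values were seen. Gene positions are from GENCODE M21 on GRCm38 and promoter letters from RefSeq on GRCm38.p6. The promoter table had no entry for Dhx58, Oas2, Mx1, Mx2, Usp18, Parp9, Parp14 and Rtp4.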

Additional observations from a re-analysis of the deposited data

Results flagged for a closer look

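Oas3 was the only member for which the knockout lines moved to opposite sides of both controls. The exon 3 knockout, at 26.3 RPKM, was below both controls (39.7 and 41.4 RPKM) and the exon 2 knockout, at 64.7 RPKM, was above both, a difference of 1.27 on the log2 scale between the knockouts. With 1 library for each exon the difference was not tested. Of all 10871 genes tested, 857 (7.88%) behaved in this way.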

How the results depend on the processing

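The vector control was highest for 34 of 37 members, or 33 after correction for GC content and length and 33 of the 36 left at a filter of 5 RPKM. The 23 members 2-fold above the parental line became 12 at 3-fold. Scaling by median ratios and quantile normalization moved the median of all genes between the knockouts and controls from -0.078 to 0.024 and 0.041. After median ratio scaling the vector control stood 1.06 above the parental line in the members' median and 0.048 in that of all genes.

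For the knockouts against both controls, the count of called members was 0, and it was 1 (Eif2ak2) at a filter of 5 RPKM, 2 (Eif2ak2, Ifit2) with a robust prior and 0 to 24 when a line was left out, the 24 being without the parental line and 3 without the vector control. For the vector-carrying lines it was 0 to 3 (3 without the vector control). Counts of members 2-fold higher in every pair were 0 to 2 for the knockouts with a line left out and 1 for the vector-carrying lines at 3-fold. Counts 2-fold lower in every pair were 0 for the knockouts after GC and length correction and at 3-fold, 1 to 22 with a line left out (22 without the parental line, 7 without the exon 2 knockout), and 0 to 1 for the vector-carrying lines. The members' median, knockouts against controls, ran from -1.30 to -0.082 with a line left out. For the knockouts against the vector control 9 members were called after quantile normalization, 5 after GC and length correction and 0 without the filter, and against the parental line 1, 1 and 0. Members 2-fold lower in the exon 3 knockout than in the parental line fell from 7 to 2 after GC and length correction. The causes were not tested.

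Among the 32 members given in every line, signs turned with the line left out, in log2 differences of the knockouts from the controls: Irf7 -1.17 to 0.76, Isg15 -1.34 to 0.11, Ifi35 -0.73 to 0.42, Dhx58 -1.55 to 0.022, Oas1a -1.77 to 0.39, Oas3 -0.61 to 0.66, Oasl1 -0.30 to 2.04, Mx1 -1.19 to 0.61, Mx2 -1.78 to 0.032, Rsad2 -0.51 to 1.33, Usp18 -2.01 to 0.11, Bst2 -0.55 to 0.37, Rtp4 -1.11 to 0.066 and Gbp2 -1.58 to 0.058. Differences near 0 also turned for Oas3 (-0.051 after GC and length correction), Mx1 (0.022 after quantile normalization, 0.0084 after GC and length correction) and Bst2 (0.024 after median ratio scaling). Of 415 values for 32 members in this comparison, 363 kept direction and side of the threshold, 30 passed it and 22 turned. For vector control over parental cells, 117 of 191 values moved by less than their 95% counting interval and 74 by more, and no difference of at least 2-fold turned. Outside the 32, Irf1 turned with the line left out (-0.38 to 0.45) and Samhd1 after GC and length correction (0.089). No paired analysis was possible because the labels number no replicates. Reads limit only Mx1 among the members.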
